A study of Homo sapiens with 6 samples.

Results

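The genes described here are 10 immediate early genes outside the AP-1 family, namely EGR1, EGR2, EGR3, IER2, IER3, IER5, MYC, ZFP36, ZFP36L1 and NR4A1. They were chosen by symbol, and each was matched through the stable part of its Ensembl identifier to the table of counts, where all 10 were found among 20422 genes. The counts of 8 of them were high enough for a test, and EGR2 and EGR3 were not tested.

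The cells were HepG2, a line established from a human hepatocellular carcinoma. RNA-Seq was performed on 3 control libraries (NC), from cells given the vector, and on 3 libraries (ORF-Flag) from cells that overexpressed the microprotein APPLE, encoded by the lncRNA ASH1L-AS1, with a Flag tag. The sample labels describe transfected plasmids, whereas the methods of the study describe lentiviral stable lines selected with puromycin and a construct that holds the 5′-UTR before the tagged reading frame, so both descriptions are given. The level of the construct was not analysed here. NC replicates 1, 2 and 3 had 20081203, 24907524 and 30088457 counted reads, and the 3 libraries of ORF-Flag, in the order of their numbers, had 26866148, 17494668 and 27015836. The labels do not say whether the 3 libraries of a group came from separate cultures, so p-values measure the spread between these libraries, which may be technical.

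Immediate early genes are transcribed soon after a growth factor or stress signal reaches the nucleus, without new protein synthesis. The ERK pathway is among the signals that drive them, through ternary complex factors and SRF at CArG boxes and through CREB at cyclic AMP response elements. Many of their mRNAs are short-lived, and several of their products restrain the same response, such as the RNA-binding proteins ZFP36 and ZFP36L1.

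The liver label was checked against marker genes. All 10 hepatocyte markers were above 1 CPM (counts scaled to a common library size with TMM factors) in each library, and their summed level was 21492, 22159 and 22538 CPM in NC and 22382, 22315 and 22321 CPM in ORF-Flag, with APOB the most abundant. The lowest of the 10 was TTR, at 6.13, 5.93 and 5.65 CPM in NC and 6.03, 6.66 and 5.63 CPM in ORF-Flag. Of these 10, FGB, a fibrinogen gene, was called higher in ORF-Flag (log2 fold change 0.14, SE 0.04, edgeR adjusted p = 0.0232). Of 4 leukocyte markers, PTPRC and CD3E had 0 counts in all libraries. CD68 was at 42.7, 37.3 and 38 CPM in NC and 37.9, 37.3 and 40 CPM in ORF-Flag. The summed leukocyte level was 1298, 1439 and 1434 CPM in NC and 1526, 1628 and 1528 CPM in ORF-Flag, nearly all of it LYZ, which was higher in ORF-Flag (log2 fold change 0.17, SE 0.04, edgeR adjusted p = 0.0112). The 3 endothelial markers summed to 4.75, 4.16 and 5.01 CPM in NC and to 6.56, 5.51 and 6.26 CPM in ORF-Flag, mostly PECAM1 (log2 fold change 0.39, SE 0.13, edgeR adjusted p = 0.0958), with VWF and CDH5 below 1 CPM throughout. The 5 fibroblast markers summed to 1 CPM or less in each library, PDGFRB being the most abundant and DCN at 0 counts. The part of the FGB, LYZ and PECAM1 differences in the values below was not tested. In bulk RNA, fewer cells expressing a gene cannot be told apart from less of its RNA per cell.

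The comparison asks which early genes differed between cells overexpressing APPLE and control cells. IER3 was higher in ORF-Flag by 1.18-fold and MYC was lower, at 0.913 of the NC level. EGR1 had the largest estimated difference of the 8 tested genes, 1.41-fold higher, but narrowly missed the threshold of an adjusted p below 0.05. IER2, IER5, ZFP36, ZFP36L1 and NR4A1 did not pass the test, with estimates between 1.07-fold and 1.15-fold. At that threshold, 1 of the 8 tested early genes was called higher, where 2.47% of all 12386 tested genes were, and 1 was called lower, where 1.98% were. Taking both directions, 2 of 8 were called, beside 4.45% of all tested genes. The median log2 fold change of the 8 genes was 0.15, with 7 above 0, beside a median of -0.0012 and 6133 genes above 0 over all 12386. IER3 had an adjusted p below 0.05 in all 16 alternative fits. The calls of EGR1 and MYC changed with some of them, as given for each gene. These 16 leave out the rule of a fold change above 1.2 with an unadjusted p below 0.05, which IER3 did not meet.

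**Figure D1:**
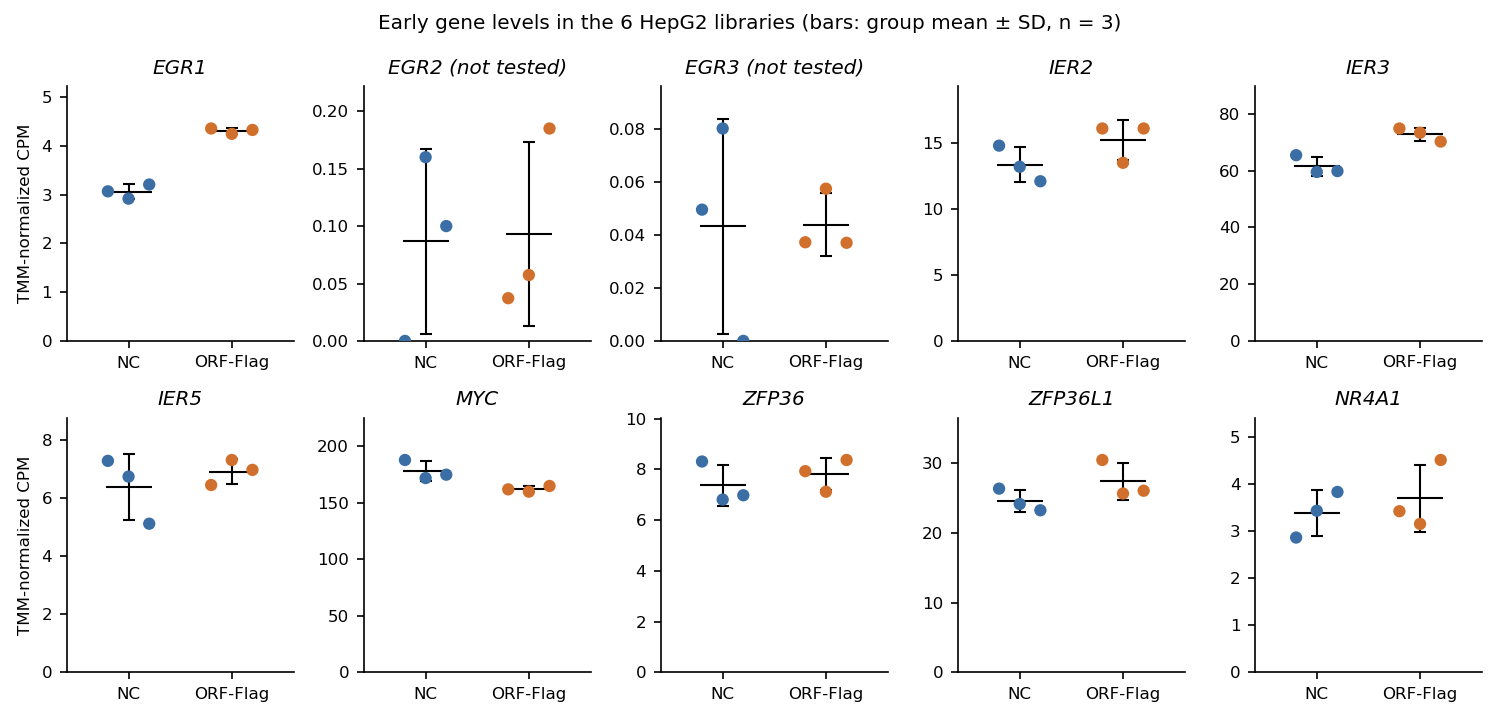
TMM-normalized CPM of the 10 early genes in each NC (blue) and ORF-Flag (orange) library, each panel with its own axis from 0 and bars for the mean ± SD (n = 3). The groups are apart for EGR1 and IER3, with ORF-Flag higher, and for MYC, with ORF-Flag lower, and overlap for the other tested genes.

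All 3 ORF-Flag libraries lay above all 3 NC libraries for 2 of the 8 tested early genes, EGR1 and IER3, and 11.5% of all tested genes showed this. All 3 lay below for 1, MYC, beside 10.9% of all tested genes. Without NC replicate 1 the groups did not overlap for 6 early genes and for 32.2% of all tested genes, where 22.4% of all tested genes had groups apart with the 6 libraries.

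The EGR genes encode zinc finger transcription factors that bind GC-rich sites. EGR1 (ENSG00000120738.8) lies on chromosome 5 of GRCh38 from 138465490 to 138469315, on the plus strand, and its longest coding transcript in GENCODE v29 has 2 exons. The table held 62, 73 and 96 reads for EGR1 in the NC libraries and 117, 74 and 117 in the ORF-Flag libraries. Scaled for depth, its level was 3.07, 2.92 and 3.21 CPM in NC and 4.36, 4.25 and 4.33 CPM in ORF-Flag, or 3.07 ± 0.142 against 4.31 ± 0.0559 CPM (SD, n = 3). Each ORF-Flag library was above each NC library, and the spread within a group was small next to the gap. The log2 fold change was 0.49 (SE 0.14), with an unadjusted p = 0.00242 and an edgeR adjusted p = 0.0519. The SD of log2 CPM within groups, 0.048, was below the median of all tested genes, 0.0781, although counts this low allow a larger spread. The estimate changed little between settings (0.46 to 0.53), but the side of the threshold did. The adjusted p was below 0.05 with limma-trend (0.0493), without a filter on low counts (0.0428), with GC content and length trends removed (0.0317) and with these trends removed in a fit with the replicate block (0.046), and it was 0.137 with DESeq2. Over the 16 alternatives it ranged from 0.0317 to 0.174. By a second rule, a fold change above 1.2 with an unadjusted p below 0.05, EGR1 was the 1 early gene counted, beside 4.54% of all tested genes, and neither IER3 nor MYC met the fold change.

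The 250 bases before the RefSeq start of EGR1 are shown because EGR1 had the largest estimate and because the elements named above lie in this stretch. They are chr5:138465229-138465478 on the plus strand of GRCh38.p14, from RefSeq, with capitals for matches to the CArG box and to TGACGT on either strand:
EGR1: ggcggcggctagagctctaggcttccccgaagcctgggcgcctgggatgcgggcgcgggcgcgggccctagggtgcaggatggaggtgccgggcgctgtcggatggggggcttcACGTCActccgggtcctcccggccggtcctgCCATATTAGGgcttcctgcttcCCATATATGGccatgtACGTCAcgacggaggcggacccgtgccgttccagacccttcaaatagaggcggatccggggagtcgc
The window held 2 CArG boxes, which end 96 and 74 bases before the start, and 2 matches to TGACGT, read on the opposite strand, which end 131 and 62 bases before it, with no overlap between the motifs. It also held 1 match to GCGNGGGCG, a form of the site that EGR proteins bind. Of 35116 RefSeq promoters of the same length, 1.16% held a CArG box, 7.1% held TGACGT, 8.41% held GCGNGGGCG, 6.57% held TGANTCA and 6.34% held CACGTG, each searched on both strands. At least 2 CArG boxes together with at least 2 TGACGT matches occurred in 1 promoter of the 35116, that of EGR1. This combination is the one seen in the EGR1 window, so the match of EGR1 itself follows from the choice.

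Promoter entries were found for 7 of the 10 genes, with 11 starts between them, and those of EGR3, IER3 and MYC were not used here. In the same windows, the start of EGR2 at chr10:62816367-62816616 held 1 CArG box and 1 TGACGT, another EGR2 start held 1 CACGTG, and 1 of the starts of ZFP36L1, at chr14:68793417-68793666, held 2 overlapping matches to TGACGT that together form 1 palindrome. The windows of IER2, IER5, NR4A1 and ZFP36 held none of the 5 motifs searched. A match is a string of letters and does not show that a factor binds there.

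**Figure D2:**
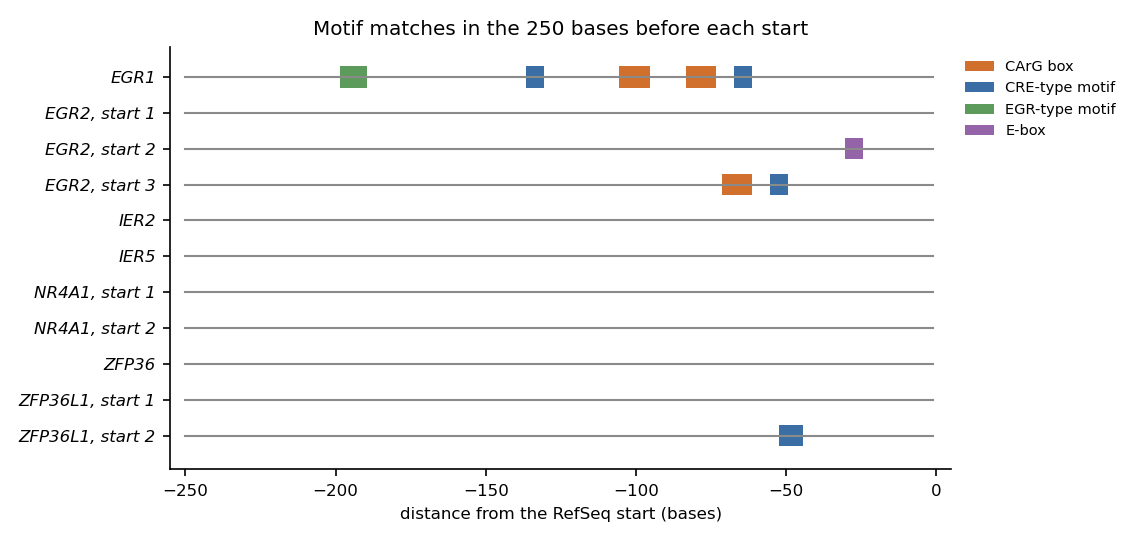
Matches to the CArG box, TGACGT (CRE-type), GCGNGGGCG (EGR-type) and CACGTG (E-box) in the 250 bases before each of the 11 RefSeq starts, by distance from the start in bases. EGR1 carries 5 of the matches drawn, and IER2, IER5, NR4A1 and ZFP36 carry none.

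EGR2 (ENSG00000122877.18, chromosome 10, from 62811996 to 62919900) and EGR3 (ENSG00000179388.9, chromosome 8, from 22687659 to 22693302) were close to the limit of detection. EGR2 had 0, 4 and 3 reads in NC and 1, 1 and 5 in ORF-Flag, which sums to 7 in each group. EGR3 had 1, 2 and 0 reads in NC and 1, 1 and 1 in ORF-Flag, which sums to 3 in each group. A floor of 3 reads corresponds to between 0.0997 and 0.171 CPM in these libraries, counting error only, and no difference in EGR2 or EGR3 was detectable at this depth.

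IER2, IER3 and IER5 are named as immediate early response genes. IER3 encodes a small protein linked to cell survival and to ERK signalling. IER3 (ENSG00000137331.12) lies on chromosome 6 from 30743199 to 30744554, on the minus strand, with 1 exon. Its level was 65.4, 59.5 and 59.8 CPM in NC and 74.8, 73.3 and 70.2 CPM in ORF-Flag, from 1276 to 2009 reads per library. The lowest ORF-Flag library was above the highest NC library, NC replicate 1. The log2 fold change was 0.24 (SE 0.05, edgeR adjusted p = 0.00286), higher in 3 of 3 ORF-Flag libraries. Without NC replicate 1, the estimate was 0.29. In GENCODE v29 the antisense gene IER3-AS1 overlaps 359 bases of the exon of IER3, and IER3-AS1 has no row of its own among the 20422. The use of strand in counting is not given in the sources used here, so reads of IER3 and of its antisense partner cannot be told apart.

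IER2 (ENSG00000160888.7, chromosome 19, from 13150415 to 13154908, plus strand, 1 exon in its longest coding transcript) was measured at 14.8, 13.2 and 12.1 CPM in NC and 16.1, 13.5 and 16.1 CPM in ORF-Flag. ORF-Flag replicate 2 fell inside the NC range, below NC replicate 1, so the groups overlapped. The log2 fold change was 0.21 (SE 0.09, edgeR adjusted p = 0.201). It was 0.26 with an adjusted p = 0.0476 after the trends on GC content and length were removed, and the adjusted p lay between 0.0476 and 0.503 over the alternatives. An antisense gene, AC011446.2, overlaps 946 bases of the exons of IER2, with the same limit on strand. IER5 (ENSG00000162783.11, chromosome 1, from 181088712 to 181092899, plus strand, 1 exon) was at 7.27, 6.73 and 5.11 CPM in NC and 6.44, 7.3 and 6.96 CPM in ORF-Flag. The low value of NC replicate 3 set the direction, since the log2 fold change of 0.13 (SE 0.13, edgeR adjusted p = 0.672) became -0.02 without it.

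MYC encodes a transcription factor that, with its partner MAX, activates genes of ribosome production and metabolism. MYC (ENSG00000136997.21) lies on chromosome 8 from 127735434 to 127741434, on the plus strand, with 3 exons in its longest coding transcript. It had between 2788 and 5248 reads per library. Its level was 188, 172 and 175 CPM in NC and 162, 160 and 165 CPM in ORF-Flag, or 178 ± 8.44 against 162 ± 2.44 CPM (SD, n = 3). NC replicate 1 was the highest library, and the lowest NC library was above all 3 ORF-Flag libraries. The log2 fold change was -0.13 (SE 0.04, edgeR adjusted p = 0.0416). This call was lost with limma-voom (adjusted p = 0.0511) and in 4 of the 6 fits that left out a library, without NC replicate 1 (log2 fold change -0.09, adjusted p = 0.122) and without ORF-Flag replicates 1, 2 or 3 (log2 fold change -0.13, -0.12 and -0.14, adjusted p = 0.139, 0.157 and 0.115), and over the 16 alternatives the adjusted p ranged from 0.0124 to 0.157.

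ZFP36 and ZFP36L1 bind AU-rich elements in mRNAs and promote their decay. ZFP36L1 (ENSG00000185650.10, chromosome 14, from 68787660 to 68796253, minus strand) was at 26.3, 24.1 and 23.2 CPM in NC and at 30.4, 25.6 and 26 CPM in ORF-Flag. NC replicate 1 was above ORF-Flag replicates 2 and 3, so the groups overlapped (log2 fold change 0.17, SE 0.07, edgeR adjusted p = 0.2). ZFP36 (ENSG00000128016.7, chromosome 19, from 39406813 to 39409412, plus strand) was at 8.31, 6.81 and 6.98 CPM in NC and 7.93, 7.12 and 8.37 CPM in ORF-Flag, and its groups overlapped as well (log2 fold change 0.10, SE 0.11, edgeR adjusted p = 0.7). NR4A1, an orphan nuclear receptor, lies on chromosome 12 from 52022832 to 52059507 on the plus strand (ENSG00000123358.20) with 8 exons in its longest coding transcript. It was at 2.87, 3.44 and 3.84 CPM in NC and 3.43, 3.16 and 4.52 CPM in ORF-Flag. The highest library, ORF-Flag replicate 3, set the direction of NR4A1, whose log2 fold change of 0.13 (SE 0.17, edgeR adjusted p = 0.745) became -0.05 without it. The gene AC025259.3 on the other strand overlaps 754 bases of NR4A1 exons, with the limit on strand given for IER3.

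**Figure D3:**
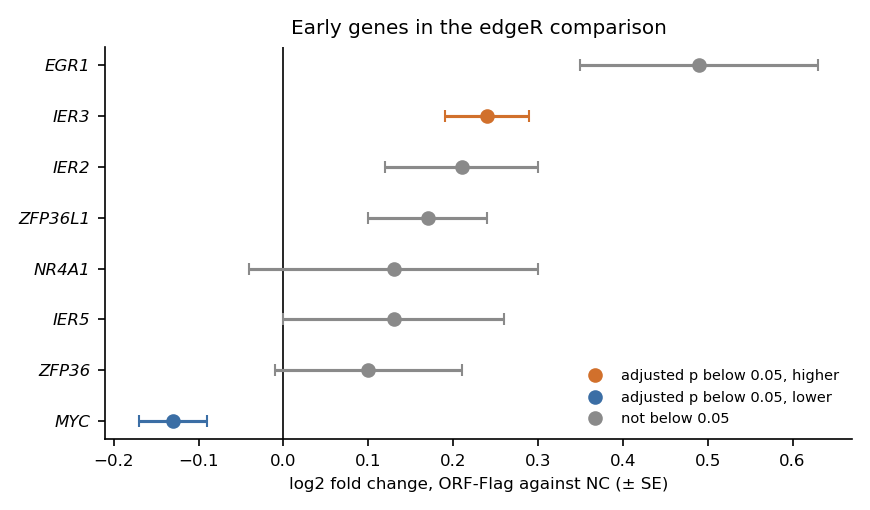
log2 fold change of ORF-Flag against NC with its SE for the 8 tested early genes, from edgeR, colored by direction where the adjusted p was below 0.05. EGR1 has the largest estimate, 0.49, with an SE of 0.14, and IER3 and MYC pass the threshold with SEs of 0.05 and 0.04.

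Expressed per kilobase of exon, which allows genes to be compared roughly, the order of levels in NC was MYC, IER3, ZFP36L1, IER2, ZFP36, IER5, EGR1 and NR4A1. The length covered all annotated exons of a gene, 7295 bases for NR4A1, 5160 for ZFP36L1 and 3138 for EGR1. Their longest coding transcripts have 3511, 3190 and 3138 bases, so the gaps between genes depend on the length used. MYC was at 59.4 ± 2.81 and IER3 at 45.4 ± 2.47 CPM per kilobase in NC (SD, n = 3). In ORF-Flag they were at 54.1 ± 0.814 and 53.7 ± 1.76 CPM per kilobase, so the levels of these 2 genes differed by more than their spread in NC and by less than it in ORF-Flag. ZFP36L1 and IER2, at 4.75 ± 0.31 and 4.36 ± 0.444 CPM per kilobase in NC, differed by less than the SD of IER2 and by more than that of ZFP36L1. EGR1 was at 0.977 ± 0.0454 and NR4A1 at 0.464 ± 0.0671 CPM per kilobase in NC. By mean level per kilobase over both groups, MYC ranked 644 and IER3 ranked 739 among the 12386 tested genes, while EGR1 ranked 9681 and NR4A1 ranked 10901.

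Most of the transcripts have few exons, a feature that the choice by symbol did not use, while AU-rich elements vary among them. IER2, IER3 and IER5 have 1 exon in their longest coding transcript and 5 others, EGR1, EGR2, EGR3, ZFP36 and ZFP36L1, have 2, while MYC has 3 and NR4A1 has 8, beside a median of 8 over 19492 coding genes. The pentamer ATTTA, the core of AU-rich elements, occurs 6 times in the 3′-UTR of IER3, 4 times in that of MYC and 1 time in that of EGR1, and 2, 3 and 3 times in those of EGR2, EGR3 and NR4A1. It occurs 10, 8 and 5 times in those of IER5, ZFP36L1 and ZFP36, which also hold the longer element TTATTTATT, found in 8.22% of 18860 genes, and the median number of ATTTA matches over these genes was 2. IER2, whose 3′-UTR holds 0, was the member with the fewest.

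NC replicate 1 was above the NC mean of log2 CPM for 7 of the 8 tested early genes, by a median of 0.10, beside a median of 0.00 over all tested genes in that library. In the same library the 1235 tested genes with a GC content of 61.9% or more deviated from the NC mean by a median of 0.09, and in NC replicate 3 by a median of -0.09. The 8 tested early genes had a GC content from 49.5% (ZFP36L1) to 61.7% (IER2), so none was in this class. In NC replicate 1, IER5 (GC content 49.8%) deviated by 0.20, ZFP36L1 by 0.10 and NR4A1 (59.8%) by -0.22. A part of GC content in the deviations of the early genes was not tested. With the trends on GC content and length removed from each library, 4 early genes, EGR1, IER2, IER3 and MYC, had an adjusted p below 0.05, and the share of all tested genes below it was 6.54% in place of 4.45%.

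The genes most like EGR1 across the 6 libraries, by the root mean square difference of centred log2 CPM over 11566 genes with a mean of at least 1 CPM, were PPP1R15A (0.0276), CXCL8 (0.0456) and PLK2 (0.0457). PPP1R15A, which encodes a regulatory subunit of protein phosphatase 1, was at 42.9, 42.5 and 45.2 CPM in NC and 63.9, 61.5 and 61.1 CPM in ORF-Flag. These genes were picked for their likeness over the same libraries, so a difference between the groups follows from the choice. The genes most like MYC were RPS12 (0.00494), AP2M1 (0.015) and NCAPH2 (0.0157). RPS12, a ribosomal protein gene, was picked in the same way, and its CPM was 906, 820 and 844 in NC and 780, 774 and 796 in ORF-Flag.

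**Figure D4:**
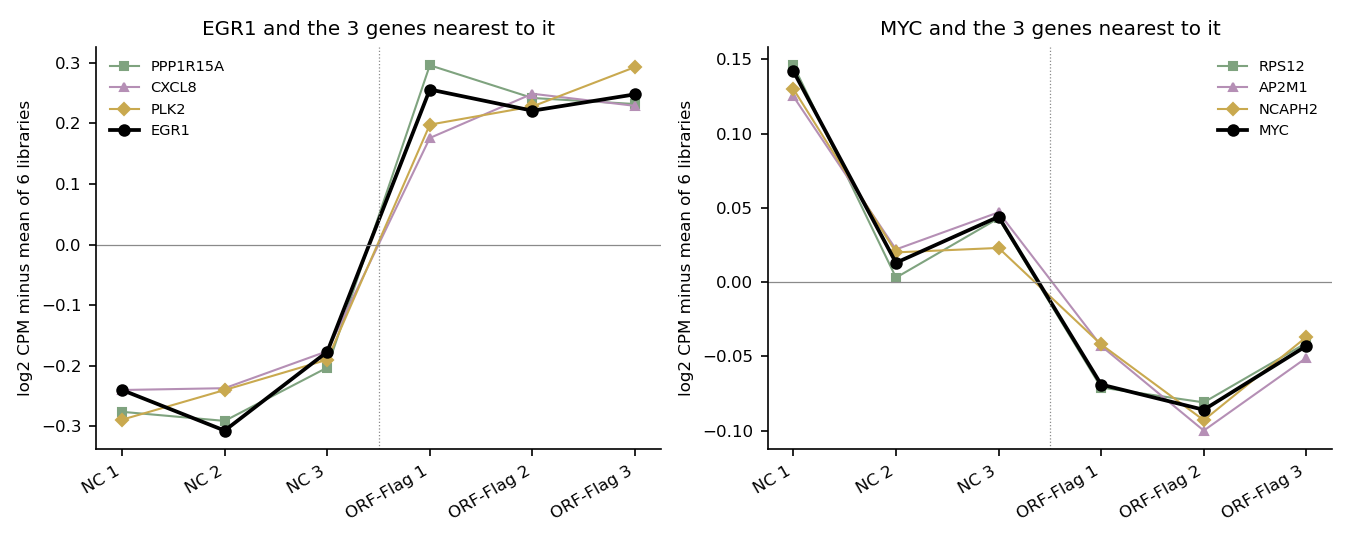
log2 CPM minus the mean of the 6 libraries for EGR1 (left) and MYC (right), each in black with the 3 genes of smallest root mean square difference; lines join libraries for reading only. The nearest genes follow EGR1 or MYC because they were chosen for it, and the curves show how close the match is, from 0.00494 for RPS12 to 0.0457 for PLK2.

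The proteins that act before and after these genes were followed in lists chosen, like the 10 genes, with earlier results of these data known. None of 16 tested upstream factors and kinases, such as SRF, ELK1 and CREB1, was called with edgeR, DESeq2, limma-trend or limma-voom. Of all tested genes, 4.45%, 3.48%, 4.8% and 4.25% were called with these methods, in the same order. An unadjusted p below 0.05 with edgeR was found for 1 of the 16, beside 2293 of all 12386 tested genes. The list had a median log2 fold change of 0.03, and RPS6KA3, an ERK-activated kinase and the gene of highest CPM in it, was at 0.03 (SE 0.03, edgeR adjusted p = 0.723). Of 11 tested corepressors and targets of EGR proteins, 0 were called with edgeR, DESeq2, limma-trend or limma-voom. With edgeR, 4 of the 11 had an unadjusted p below 0.05, beside 2293 of all 12386 tested genes. With the trends on GC content and length removed 1 was called, beside 6.54% of all tested genes. It was the adhesion receptor gene ICAM1 (log2 fold change 0.13, edgeR adjusted p = 0.0418). The median of the 11 was 0.08, and fibronectin, FN1, the most abundant, was at 0.01 (SE 0.04, edgeR adjusted p = 0.92). NAB2, a corepressor of EGR1, was at 17.4, 18.8 and 14.9 CPM in NC and 13.5, 13.8 and 15.6 CPM in ORF-Flag, with overlapping groups (log2 fold change -0.24, SE 0.09, edgeR adjusted p = 0.113). Its adjusted p was 0.0475 without a filter on low counts and 0.00866 without NC replicate 3. ICAM1 and NAB2 are named after their values were seen.

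Of 12 tested partners and antagonists of MYC, 1 was called, beside 4.45% of all tested genes. It was MXD3, a repressor that binds MAX. MXD3 was at 6.43, 5.77 and 5.38 CPM in NC and at 4.73, 3.56 and 4.11 CPM in ORF-Flag, with no overlap (log2 fold change -0.48, SE 0.14, edgeR adjusted p = 0.0453), and the call was lost in 8 of 16 alternatives, among them the fits without NC replicate 1 (adjusted p = 0.135), NC replicate 2 (0.118), ORF-Flag replicate 2 (0.181) and ORF-Flag replicate 3 (0.172). MLXIPL, the partner gene with the most CPM, was at -0.07 (SE 0.04, edgeR adjusted p = 0.377). Of 28 tested MYC targets, 1 was called, beside 4.45% of all tested genes. Of the 28, 22 had a log2 fold change below 0, beside 6253 of all 12386 tested genes, with a median of -0.04 beside -0.0012. The number called was between 1 and 4 over the 16 alternatives. It was 4 without a filter on low counts and 3 without NC replicate 3, where 5.03% and 8.48% of all tested genes were called. The number below 0 was between 21 and 23 with DESeq2, limma-trend, limma-voom, the other size factors and the GC content and length trends removed. HSPE1, the mitochondrial co-chaperonin, was the target called, at 202, 198 and 193 CPM in NC and 163, 167 and 149 CPM in ORF-Flag (log2 fold change -0.31, SE 0.04, edgeR adjusted p = 2.61e-05). Its partner chaperonin HSPD1, the most abundant target, was at -0.04 (SE 0.03, edgeR adjusted p = 0.531).

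Of 15 tested mRNAs known as targets of ZFP36 proteins, 2 rose and 1 fell, beside 2.47% called higher and 1.98% called lower of all tested genes. The median log2 fold change of the 15 was 0.02. The chemokine gene CXCL8 was at 20.8, 20.8 and 21.7 CPM in NC and at 27.7, 29.2 and 28.8 CPM in ORF-Flag, with no overlap (log2 fold change 0.43, SE 0.06, edgeR adjusted p = 0.000112). CCND1, which encodes cyclin D1, fell (log2 fold change -0.14, SE 0.04, edgeR adjusted p = 0.0346), a call lost in 5 of 16 alternatives, each a fit without 1 library (adjusted p = 0.0879 and 0.1 without NC replicates 1 and 2, and 0.139, 0.0711 and 0.16 without ORF-Flag replicates 1, 2 and 3). HIF1A, the most abundant of the list, was at 0.05 (SE 0.03, edgeR adjusted p = 0.463). The targets TNF, IL6, CXCL1, CXCL3, CSF2 and PTGS2 had 8 reads or fewer in any library and were not tested.

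Other early genes gave a background for the 10. Of 32 tested further primary response genes, 5 rose and 1 fell, beside 2.47% called higher and 1.98% called lower of all tested genes. The median of the 32 was 0.07. Those that rose included PPP1R15A (log2 fold change 0.51, edgeR adjusted p = 1.19e-07), PLK2 (log2 fold change 0.48, edgeR adjusted p = 1.91e-05), BHLHE40 (0.34, adjusted p = 0.000167) and KLF6 (0.25, adjusted p = 0.00138). The other that rose, ARID5B, lost its call without NC replicate 2 (adjusted p = 0.0927) and ORF-Flag replicates 2 (0.0594) and 3 (0.0919), and ID1, which fell, lost its call without ORF-Flag replicates 2 (0.0885) and 3 (0.0997). ARID5B, ID1 and JUNB are named after their values were seen. ERRFI1, the most abundant, was at -0.04 (SE 0.03, edgeR adjusted p = 0.579). In the AP-1 family 5 of 8 tested genes rose, with a median of 0.39, beside 2.47% of all tested genes called higher. With DESeq2, 3 were called, beside 3.48% of all tested genes in either direction. DESeq2 gave JUNB an adjusted p above 0.05 and FOSB none. The smallest p was that of ATF3 (log2 fold change 0.93, SE 0.12, edgeR adjusted p = 1.61e-05), which the study chose on these samples, so that its direction is not independent evidence. FOSL1 (0.50), FOSB (2.07, from few reads) and JUN (0.19) rose too, while JUND, the most abundant, was at -0.07 (edgeR adjusted p = 0.673) and at 0.07 without NC replicate 1. Of 9 tested ERK feedback genes 3 rose, beside 2.47% of all tested genes called higher. They were DUSP5 (0.81), DUSP6 (0.19) and ETV4 (0.14), where DUSP5 too was chosen by the study on these samples. With libraries left out, where fewer genes were called in most fits, some of these calls were lost. Of all tested genes, 3.66%, 2.13% and 8.48% were called without NC replicates 1, 2 and 3. Without ORF-Flag replicates 1, 2 and 3 the shares were 2.41%, 2.22% and 1.6%. In the AP-1 family 2 genes, ATF3 and FOSL1, were called without NC replicate 2 or ORF-Flag replicate 3, and 3 were called without ORF-Flag replicate 2. The call of JUN was lost in those 3 fits (log2 fold change 0.19, 0.13 and 0.19, adjusted p = 0.103, 0.253 and 0.0954), and that of FOSB in the first 2 (log2 fold change 2.07 and 1.74, adjusted p = 0.053 and 0.146). JUNB lost its call in each fit that left out a library except the fit without NC replicate 1 (log2 fold change from 0.22 to 0.33, adjusted p from 0.053 to 0.178). Of the ERK feedback genes, 1 was called without ORF-Flag replicate 3, where the calls of DUSP5 (log2 fold change 0.67, adjusted p = 0.093) and ETV4 (0.14, adjusted p = 0.12) were lost, and ETV4 lost its call also without NC replicate 2 (adjusted p = 0.0863) and ORF-Flag replicates 1 (0.131) and 2 (0.0814), at log2 fold changes of 0.13 to 0.14.

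**Figure D5:**
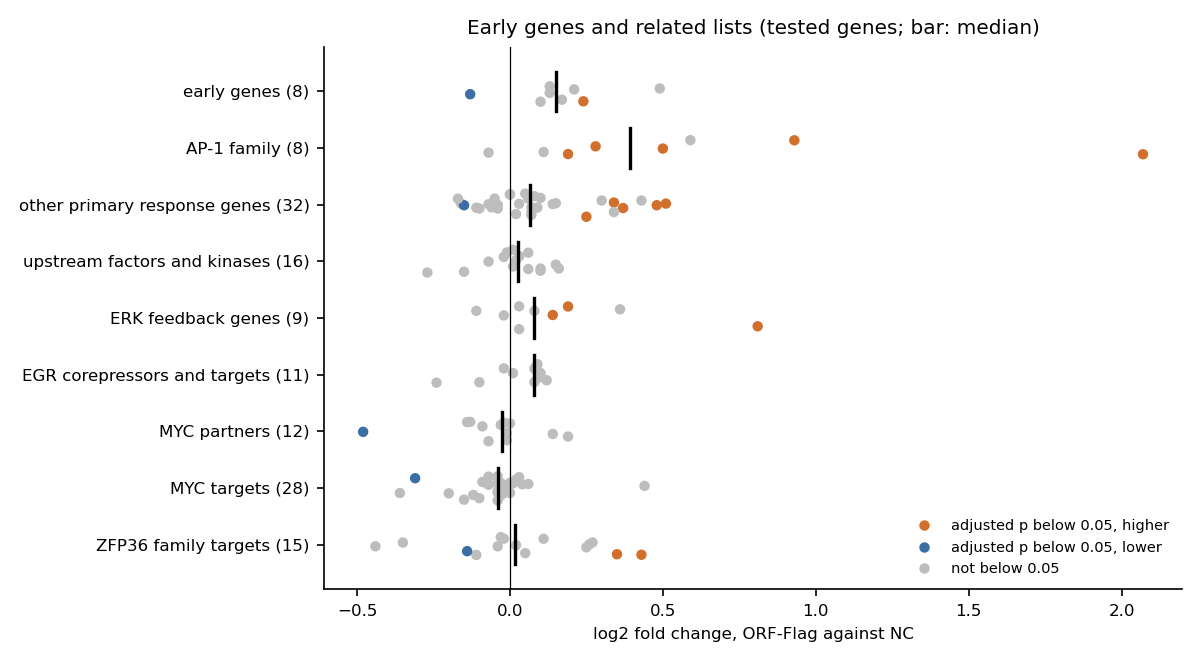
log2 fold change of ORF-Flag against NC for each tested gene of the early genes and of 8 related lists, with the number tested in parentheses, a bar at the median and color where the edgeR adjusted p was below 0.05. The AP-1 family has the highest median, 0.39, the early genes have 0.15, and the MYC targets have -0.04.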

How the data were processed

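RNA-Seq libraries of HepG2 cells, 3 NC and 3 ORF-Flag, were compared. The table that the authors deposited holds raw read counts of 20422 Ensembl genes. The submitters' processing notes name cutadapt 1.11, HISAT2 2.1.0, featureCounts 1.6.0, edgeR and GRCh38; the strand setting is not given in the sources used here. Columns were matched to samples by name. The 10 genes, the lists and the markers were chosen with earlier results of these data known.

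Genes were filtered with filterByExpr, which kept 12386, scaled with TMM and compared with the quasi-likelihood test of edgeR 4.0.16 in R 4.3.3, with Benjamini-Hochberg adjustment over all 12386 genes. The SE was derived from the F statistic. The test was tested on simulated data. Levels are TMM-normalized CPM, divided by the merged length of all exons of the gene in GENCODE v29 where genes are compared. Log2 CPM used a prior count of 2. Symbols were matched for 20421 genes. Chi-square tests between libraries of a group gave 2.39 to 5.23 per degree of freedom, so no library looked like a copy of another in its group. Alternatives were DESeq2 1.42.0, limma-trend and limma-voom (limma 3.58.1), other size factors, no filter or at least 10 counts in every library, the replicate number as a block, removal of each library's trends on GC content and exon length, each library left out in turn, and a fold change above 1.2 with an unadjusted p below 0.05.

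Named by rule were the 10 members, up to 4 genes of each list with the smallest p among those with an adjusted p below 0.05, the gene of highest mean CPM in each list, and for EGR1 and MYC the 3 genes of most similar centred log2 CPM. A gene that this rule names is not reported here. Promoters were taken from RefSeq on GRCh38.p14 and figures drawn with matplotlib 3.10.9.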

Additional observations from a re-analysis of the deposited data

How the results depend on the processing

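For the 8 tested early genes, 116 of 128 values under the alternatives kept their direction and their side of the threshold, 5 lost a call (MYC), 5 gained one (EGR1 and IER2) and 2 changed direction. The log2 fold change of IER5 was -0.0239 without NC replicate 3 and up to 0.2244 with another library left out, and that of NR4A1 was -0.0469 without ORF-Flag replicate 3 and up to 0.2379. For the 26 other named genes, 375 of 414 kept both, 31 lost a call and 8 changed direction, all in genes without a call. These were JUND at 0.0016 with GC content and length trends removed and -0.1602 to 0.0681 with a library left out, above 0 without NC replicate 1; RPS6KA3 at -0.0045 with these trends removed and -0.0044 with the replicate block added; and FN1 at -0.0346 and -0.0348 in the same fits, and -0.0169 to 0.0424 with a library left out, below 0 without NC replicate 1 or ORF-Flag replicate 2. FOSB had no value with at least 10 counts in every library and no adjusted p with DESeq2.

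The number of genes called, 551, was 199 to 1058 when a library was left out, with 267 without NC replicate 2, 1058 without NC replicate 3, and 300, 278 and 199 without ORF-Flag replicates 1, 2 and 3. The number of early genes called, 2, was 1 with limma-voom, 4 with GC content and length trends removed (where 6.54% of all genes were called, against 4.45%), 1 at a fold change above 1.2 with an unadjusted p below 0.05, and 1 to 2 with a library left out, 1 being the value without NC replicate 1 or without any of ORF-Flag replicates 1, 2 and 3. The number of early genes whose groups do not overlap, 3, was 3 to 6 with a library left out, 6 without NC replicate 1, while the share of all tested genes went from 22.4% to between 30.9% and 37.4%. The causes of these changes were not tested.

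The replicate numbers were not taken to pair the libraries. The correlation of deviations between same-numbered libraries was 0.0666, 0.0266 and 0.0448, none of them over 0.1. Each NC library and ORF-Flag replicates 1 and 3 correlated best with their own number, and ORF-Flag replicate 2 with NC replicate 3 (0.0304). With the replicate block 731 genes and 2 early genes were called. Depth limits EGR1 and NR4A1, with 55 to 122 reads per library, and EGR2 and EGR3.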
